A study of Mus musculus with 57 samples.

Results

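Neuropeptide Y (Npy) and preproenkephalin (Penk), both genes for secreted neuropeptides, were followed across 57 single cells of the newborn mouse kidney. They are 2 of the 12087 genes with a row in the authors' deposited table of expression values, and both were picked from that table with their values known, so their levels are given as a description and were not tested. The cells came from Tg(Crym-EGFP)GF82Gsat mice at postnatal day 4, in which the green fluorescent protein EGFP marks cells that use the control region of Crym. All 57 form 1 group, with no comparison group: fluorescence sorting took them, as cells of the renal vesicle, out of a single pool made from 2 kidneys, with a mixed strain background and, in nearly all labels, unknown sex. Each cell was caught in a chamber of a Fluidigm C1 chip, its cDNA was amplified with the SMARTer kit, and Nextera XT libraries, which keep no strand, were sequenced on a HiSeq2500. Cells of 1 pool are not replicates, so no p-value was computed, and each SD or interval covers the spread or the sampling of cells within this pool only.

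The renal vesicle is the first epithelial structure of the nephron, formed from progenitors of the cap mesenchyme. It soon divides into a proximal side, marked by the transcription factor Wt1 and the source of podocytes, and a distal side, marked by Sox9 and Pou3f3 and the source of tubule segments. Stromal and mural cells lie around it, and macrophages enter the kidney early. Npy is best known as a transmitter of brain neurons and of the sympathetic nerves that constrict blood vessels. Its precursor is cut by prohormone convertases at a pair of basic residues, trimmed by a carboxypeptidase and given a C-terminal amide by Pam. Penk encodes a precursor that holds several short opioid peptides, the enkephalins, between such basic pairs. Its transcripts are also known from mesenchyme of developing rodent organs.

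The precursor design of each gene can be read in its coding sequence, and these stretches are shown because they carry the peptides for which the genes are named. They were taken from GENCODE M21 transcripts on build GRCm38 and are written 5′ to 3′ on the coding strand. In Npy, on chromosome 6, bases 85 to 201 of the 294 coding bases hold the 36 codons of the peptide and then 3 codons in capitals. These 3 codons encode the glycine that donates the amide, then the basic pair at which the precursor is cut.
Npy peptide: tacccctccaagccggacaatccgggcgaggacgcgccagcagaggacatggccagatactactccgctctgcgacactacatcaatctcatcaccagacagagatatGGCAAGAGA
In Penk, on chromosome 4, the 807 coding bases hold 7 copies of the 5 enkephalin codons. Of these, 6 carry the Met-enkephalin sequence and 1 carries the Leu-enkephalin sequence. Capitals mark the 5 enkephalin codons, and the lower case letters are the pair of codons on each side.
Penk Met-enkephalin, coding bases 292 to 318: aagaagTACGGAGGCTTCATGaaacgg
Penk Met-enkephalin, coding bases 625 to 651: aagcgcTACGGGGGCTTCATGagaagg
Penk Leu-enkephalin, coding bases 685 to 711: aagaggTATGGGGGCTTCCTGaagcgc
Penk Met-enkephalin, coding bases 778 to 804: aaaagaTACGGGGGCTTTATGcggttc
A basic pair stands before all 7 copies and after 5 of them. The last of the 5 capital codons encodes the methionine or leucine that names each copy. The copy at the end of the coding sequence is followed by a pair that is not basic. Where no basic pair follows, the label names the 5 capital codons and not the peptide that is released.

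Levels are given as RPKM, a read number scaled to gene length and to the depth of the cell, which allows genes to be compared. A gene was called detected at RPKM 1 or more, and called strong here at RPKM 20 or more. Cells held an estimated 0.472 to 2.28 M reads (median 1.47 M), and 2809 to 6502 genes were detected per cell. At the median depth 1 read of Npy is worth an RPKM of about 1.24 and 1 read of Penk about 0.426, so the detection level lies at about 1 read for Npy and 2 to 3 reads for Penk. Of the 57 cells, 50 had the nephron transcription factor Pax8 at RPKM 5 or more. Among the other 7, there were 5 with the complement gene C1qb at 1000 or more, which are macrophage-like, and 2 without it, cells 13 and 53. Neither Npy nor Penk had RPKM above 0 in any of the 5 macrophage-like cells, and 0 of 5 cells allows a share of up to 52.2% by the exact Clopper-Pearson limit.

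Npy was a common and abundant transcript of the nephron cells, while Penk was very high in a few cells with stromal genes and at or near 0 elsewhere. Npy (gene ID 109648; chromosome 6, 49772728 to 49779504, mm9 coordinates) reached the detection level in 45 of 57 cells (78.9%, Clopper-Pearson 95% interval 66.1 to 88.6), and 11.4% of all genes were detected in at least 45 cells. Penk (gene ID 18619; chromosome 4, 4060683 to 4065962) reached it in 9 of 57 cells (15.8%, interval 7.48 to 27.9), and 32.4% of all genes were detected in 9 cells or fewer. By mean RPKM over all cells Npy came at place 254 of the 12087 genes (255 ± 380, SD, n = 57 cells) and Penk at place 454 (155 ± 909). The median over all cells was 133 for Npy and 0 for Penk, so the high mean of Penk rests on a few cells.

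**Figure D1:**
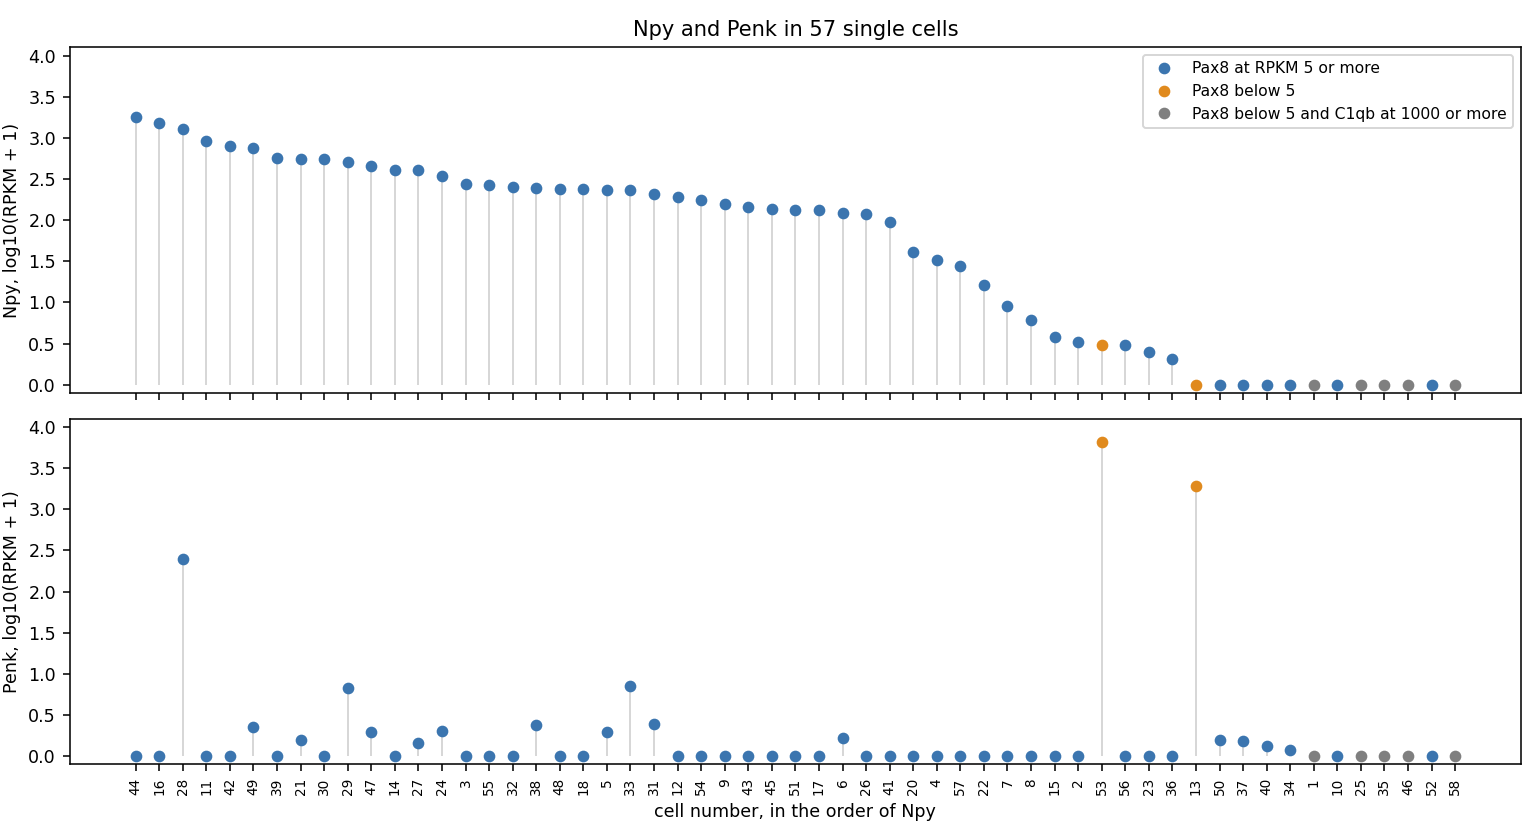
Expression of Npy (top) and Penk (bottom) in each of the 57 cells, as log10(RPKM + 1), with cells in the order of Npy and coloured by Pax8 and C1qb. Npy runs from 1799 in cell 44 to 0 in 12 cells, while Penk reaches 6631 in cell 53, 1909 in cell 13 and 246 in cell 28 and stays at 6.08 or lower in the other 54 cells.

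Npy was strong in 36 cells (63.2%, interval 49.3 to 75.6), and in 32 of these it was at RPKM 100 or more. Over the 45 cells with Npy the lowest value was 1.08, the median 210 and the highest 1799. The highest values were 1799 in cell 44, 1527 in cell 16, 1287 in cell 28, 910 in cell 11, 786 in cell 42 and 748 in cell 49. The 2 highest cells held 22.8% of the summed Npy RPKM, so the total is spread over many cells. Below the strong range the values were 15.4 in cell 22, 8.03 in cell 7 and 5.13 in cell 8, which are about 14, 8 and 5 reads. Another 6 cells had 1 or 2 reads of Npy: cells 15 (2.79), 2 (2.32), 53 (2.03), 56 (2.01), 23 (1.49) and 36 (1.08). Just inside the detection level stood cell 36, and just outside it stood the 12 cells at 0, since no cell had a value between.

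The nephron cells carried nearly all of the Npy. Of the 50 cells with Pax8, 44 had Npy detected (88.0%, interval 75.7 to 95.5), 36 had it strong, and the median was 166. Every strong Npy cell was thus a Pax8 cell. Among the cells without Pax8, the 5 macrophage-like ones were at 0, cell 13 was at 0 and cell 53 had 1 read. Median genes detected were 4366 in the Pax8 cells, against 3489 in the macrophage-like cells.

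Within the nephron, Npy was high on the side with Wt1 and lower on the side with Sox9 and Pou3f3. Wt1, which builds the proximal vesicle and the podocyte, stood at RPKM 20 or more without strong Sox9 or Pou3f3 in 33 Pax8 cells, where Npy had a lowest value of 0, a median of 232 and a highest of 1799. Sox9 and Pou3f3, transcription factors of the distal side, were the strong ones in 12 Pax8 cells with low Wt1, where Npy had a lowest value of 0, a median of 22.5 and a highest of 457. Npy was strong in 27 of the 33 cells of the Wt1 kind (81.8%, interval 64.5 to 93.0) and in 6 of the 12 of the Sox9 or Pou3f3 kind (50.0%, interval 21.1 to 78.9). The ranges and the intervals overlap, and the difference was not tested because all cells come from 1 pool. Median depth was 1.47 M reads in the cells of the Wt1 kind and 1.64 M in those of the Sox9 or Pou3f3 kind. Strong Wt1 together with a strong distal gene was found in cells 36 and 41, with Npy at 1.08 and 93.3. None of these genes was strong in cells 3, 37 and 42, with Npy at 272, 0 and 786.

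The podocyte genes mark the exception among the Wt1 cells. Synpo, an actin-binding protein of podocyte foot processes, was strong in 5 cells. Apart from cells 53 (59.3) and 13 (22.3), which lack Pax8, these were 3 of the 33 Wt1 cells, and Npy in these was 2.32 in cell 2, 0 in cell 10 and 0 in cell 34. In the other 30 Wt1 cells Npy was detected in all 30 (interval 88.4 to 100), with a lowest value of 1.49, a median of 237 and a highest of 1799. Both sets overlap only through cell 23, whose Npy of 1.49 was lower than that of cell 2. In cells 2, 10 and 34, Wt1 reached 1382, 1020 and 865, and these are 3 of the 5 Pax8 cells with Wt1 at 500 or more. The receptor phosphatase gene Ptpro of podocytes stood at 138, 74.6 and 265 in them, and the slit diaphragm gene Nphs1 at 27.9, 24.8 and 0. The split by Synpo was made after its values were seen, so it is a description of 3 cells.

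The other Pax8 cells with little Npy mostly had a strong distal gene. In all, 11 of the 50 Pax8 cells had Npy below RPKM 3, and 6 of these were at 0. Besides the 3 podocyte-gene cells, 6 had Sox9 or Pou3f3 at 20 or more, out of 14 such Pax8 cells. Those 14 include cells 36 and 41, which also had strong Wt1, and cell 36, with Wt1 at 40.8, is among the 6. Sox9 was 172 in cell 40, 355 in cell 52, 51.9 in cell 36, 229 in cell 56, 80.9 in cell 15 and 0 in cell 50. Pou3f3 was 138 in cell 40, 271 in cell 52, 21.1 in cell 36, 5.01 in cell 56, 49.7 in cell 15 and 66.5 in cell 50. Cells 37 and 23 had neither the podocyte genes nor a strong distal gene. Cell 37 had the highest Pax8 of all cells (1160) with 361 of Tmem100, a membrane protein gene of the proximal vesicle, and cell 23 had the Notch ligand Jag1 at 585.

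The cells with most Npy were not alike in other nephron genes. Wt1 was 129 in cell 44, 116 in cell 16, 262 in cell 28, 419 in cell 11, 0.140 in cell 42 and 566 in cell 49. Lhx1, a transcription factor of the early vesicle, was 153, 0.273, 0.620, 64.1, 184 and 321 in the same 6 cells. They were thus uneven in both genes, and cell 42 shows that a Npy level of 786 occurred with almost no Wt1. In all 6 Sox9 was at 4.94 or lower, Pou3f3 at 0.321 or lower, and Bmp7, a growth factor, and Synpo were at 0.

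Rank correlation over the cells sets Npy beside each other gene. It is a description over 57 cells that share pool, lane and amplification kit but differ in depth. Depth moved with Npy (Spearman rho 0.28 with estimated depth and 0.24 with the number of genes detected). Of 10390 genes detected in at least 5 cells, 517 (4.98%) had a rho of 0.3 or more with Npy and 226 (2.18%) had a rho of -0.3 or less, and the median over all was 0.04. The 517 genes became 319 with the number of genes detected regressed out, and 297 without the 7 cells with low Pax8. Igf2, a fetal growth factor, came highest (0.66), and H19, the imprinted noncoding RNA beside it, was also high (0.57). Igf2 was strong in 20 cells, and 18 of these had strong Npy, where independence gives 12.6. H19 was strong in 32 cells, 28 of them with strong Npy against 20.2 under independence. Since Igf2 and H19 were named for their high rho with Npy, such an excess follows from that choice. Both genes kept much of their rho among the Pax8 cells alone, with 0.57 for Igf2 and 0.46 for H19.

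**Figure D2:**
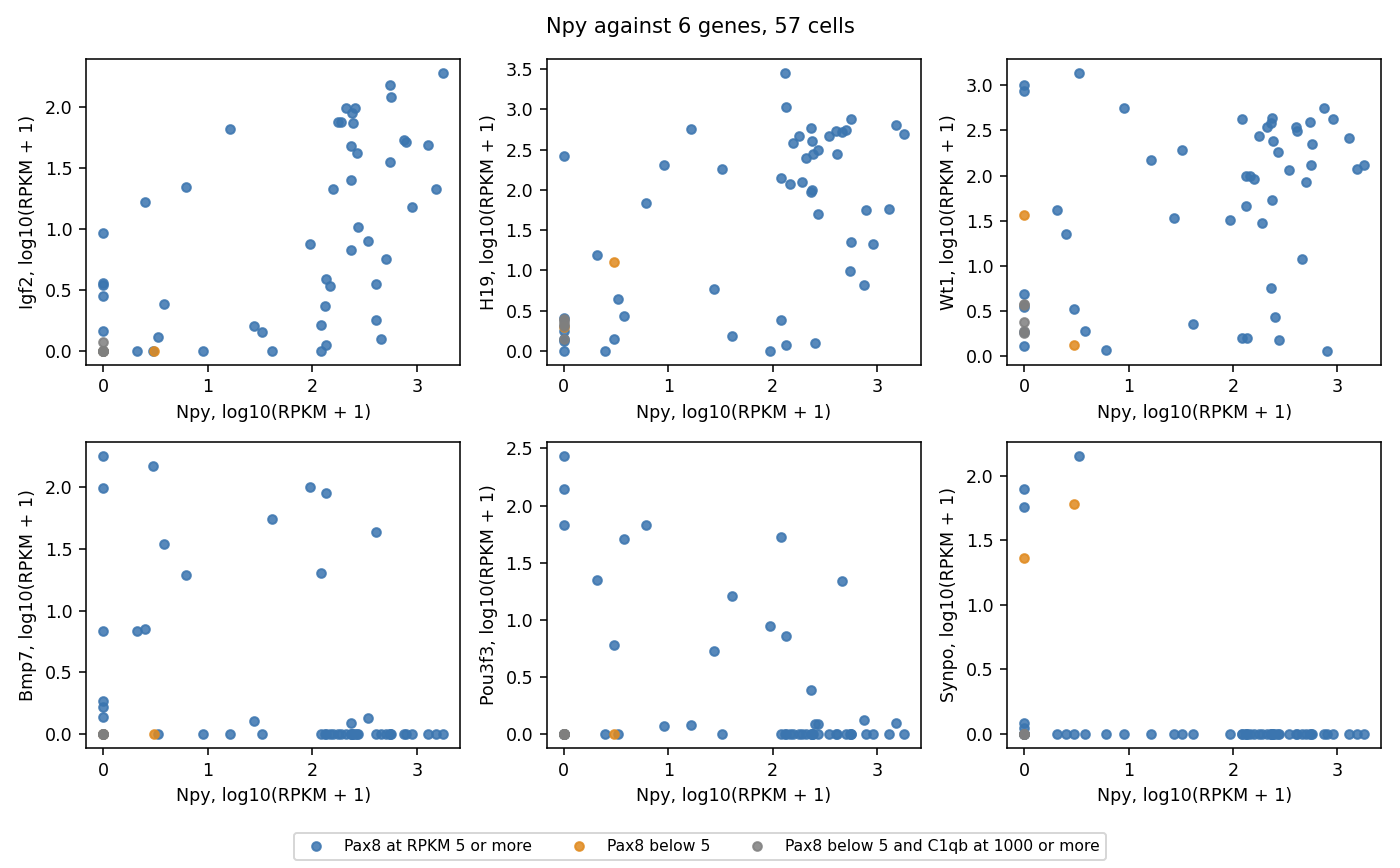
Npy (x axis) against Igf2, H19, Wt1, Bmp7, Pou3f3 and Synpo (y axes), all as log10(RPKM + 1), with 1 point per cell (57 cells) coloured by Pax8 and C1qb. High Igf2 and H19 lie mostly to the right, where Npy is strong, while no cell with Synpo at RPKM 20 or more has Npy above 2.32.

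The other genes most like Npy in rank were the chromatin protein gene Ptma (0.63), the microtubule regulator Stmn1 (0.59), the laminin chain Lamc1 (0.57), the purine synthesis enzyme Pfas (0.56), the dUTPase Dut (0.53), the replication helicase factor Cdc45 (0.53), the nucleosome binding protein Hmgn2 (0.53) and 2810417H13Rik (0.52). Cdc45 was strong in 18 cells, and all 18 had strong Npy, where independence gives 11.4. As Cdc45 was named for its high rho with Npy, an excess follows from that choice. Ptma, Stmn1 and Hmgn2 have near-identical copies in the genome, so their levels are uncertain. Of the G2/M genes, 5 of 12 had a rho of 0.3 or more, beside 4.98% of all genes. They were Top2a (0.40), Birc5 (0.39), Aurkb (0.34), Mki67 (0.32) and Ccnb1 (0.32). None was at -0.3 or less, and the list median was 0.24 beside 0.04 for all genes. Without the 7 cells with low Pax8 the rho was 0.34 for Dut, 0.45 for Cdc45 and 0.36 for Top2a.

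Early nephron and proximal genes were split in their relation to Npy. Of all genes, 4.98% had a rho of 0.3 or more and 2.18% a rho of -0.3 or less. Of 14 early nephron genes, 5 had a rho of 0.3 or more, and 1, the growth factor Bmp7, had -0.41, or -0.62 among Pax8 cells alone. The 5 were the Notch target Hey1 (0.47), Pax8 (0.37), the adhesion molecule Ncam1 (0.35), Lhx1 (0.34) and the cyclin Ccnd1 (0.32). Among Pax8 cells alone Hey1 had 0.32, Ncam1 0.22, Pax8 0.15, Lhx1 0.13 and Ccnd1 0.12, so for most of these the relation rests largely on the cells without Pax8. Of 16 proximal and podocyte genes, 4 were at 0.3 or more and 2 at -0.3 or less. The 4 were the cell cycle inhibitor Cdkn1c (0.45), Wt1 (0.35), the membrane protein gene Pmp22 (0.35) and Tmem100 (0.31), and the other 2 were Synpo (-0.44) and Ptpro (-0.31). Pmp22 and Cdkn1c had 0.49 and 0.40 among Pax8 cells alone, while Wt1 had 0.23 and Tmem100 0.13. Synpo had -0.48 among Pax8 cells alone, and Ptpro had -0.21.

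Over all 57 cells, the distal vesicle list as a whole lay near all other genes in its relation to Npy. Of 16 distal genes, 2 had a rho of 0.3 or more, Lhx1 and Ccnd1, beside 4.98% of all genes. With a list median of -0.04, 1 distal gene had -0.3 or less, beside 2.18% of all genes. That gene was Mecom, a transcription factor, at -0.38, and none of the 4 cells with strong Mecom had strong Npy. Pou3f3 had -0.19 over all cells and -0.39 among Pax8 cells, and Sox9 -0.12 and -0.36. Among Pax8 cells Mecom had -0.44, while Lhx1 and Ccnd1 fell to 0.13 and 0.12. The list median was taken over all cells and does not describe the Pax8 cells alone. Strong Pou3f3 was found in 8 cells, of which 2 had strong Npy, where independence gives 5.05. The lowest values of all genes were those of the ribosome assembly factor Utp11l (-0.58), the lysozyme Lyz1 (-0.53), the transcription factor Mef2c (-0.49), the receptor Nrp1 (-0.48) and the immunoproteasome subunit Psmb8 (-0.47). Lyz1, Mef2c and Psmb8 were at -0.22, -0.23 and -0.28 among Pax8 cells alone, while Utp11l and Nrp1 kept -0.55 and -0.47. Of 13 macrophage genes 4 were at -0.3 or less, beside 2.18% of all genes. The largest of these 4 in size, Aif1, was at -0.45 over all cells and at -0.22 among Pax8 cells.

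**Figure D3:**
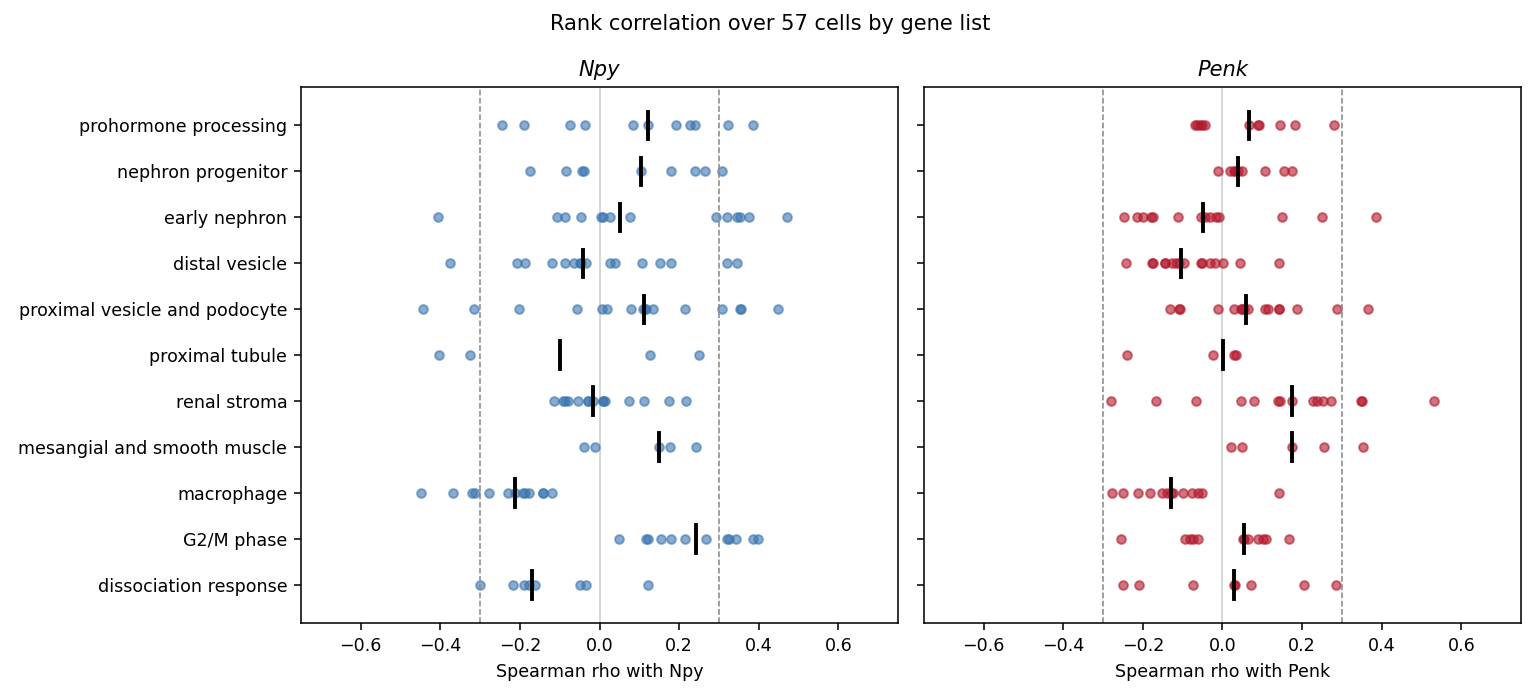
Spearman rho over 57 cells of each list gene with Npy (left) and with Penk (right), by gene list, for genes detected in at least 5 cells; points are genes, black bars are list medians and dashed lines mark -0.3 and 0.3. With Npy the G2/M list has a median of 0.24 and the macrophage list -0.21; with Penk the stroma list has a median of 0.17.

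The authors' smaller deposited table, which contrasts proximal with distal vesicle cells, lists Npy as well. In the authors' deposited table Npy has a signed fold of 11.1 toward the proximal class, at place 58 of the 436 genes higher in that class. For scale, the authors' deposited table gives 173 for Tmem100, 115 for H19, 96.1 for Wt1 and 65.0 for Pmp22, and on the distal side -131 for Sox9, -30.8 for Pou3f3 and -9.67 for Bmp7. That table has columns for 28 of the 57 cells, in which Npy was detected in 25 and strong in 19. Cells 13, 28 and 53 have no column there, and Penk was not analysed in it. The podocyte-gene cells 2, 10 and 34, with strong Wt1 and little or no Npy, have no column there either. The fold of Npy thus does not cover them. The sources used here do not tell which of the 28 cells stood in which class.

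Penk was strong in 3 cells (5.26%, interval 1.10 to 14.6). Its RPKM was 6631 in cell 53, 1909 in cell 13 and 246 in cell 28, or about 9551, 4845 and 667 reads. Cells 53 and 13 together held 97.0% of the summed Penk RPKM of all cells, and all 3 held 99.7%. In cell 53 Penk was the third highest of the 12087 genes, and in cell 13 it came at place 23. Next came cell 33 with 6.08 (18 reads), cell 29 with 5.79 (15 reads), cell 31 with 1.49, cell 38 with 1.37, cell 49 with 1.23 and cell 24 with 1.00. No cell lay between cell 28 and cell 33. Just below the detection level were cells 47 (0.959) and 5 (0.943), and 39 cells were at 0.

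Cells 53 and 13 had stromal genes at high levels and were low in the early nephron genes. Of 15 early nephron genes 3 were detected in each, against a median of 9 per cell. Pax8 was 0.437 in cell 53 and 0.744 in cell 13, and Lhx1 was 0.803 and 0.456. Pdgfra, a growth factor receptor of mesenchyme, was 365 in cell 53 and 237 in cell 13, against 1.31 or less in all other cells. The collagen gene Col3a1 was 123 and 231 in cells 53 and 13, and the matrix proteoglycan gene Dcn was 126 and 349. The intermediate filament gene Vim was 560 and 1311, and Snai2, a transcription factor of mesenchymal cells, was 373 and 284. Of 22 stroma genes, 14 were detected in cell 53 and 13 in cell 13, with 12 in both, against a median of 3 per cell over all 57 cells. For the whole table, 29.9% of genes were detected in cell 53, 28.6% in cell 13 and 15.9% in both. Summed RPKM over the stroma list was 2556 in cell 53 and 3292 in cell 13, the 2 highest of all cells, whose median was 180.

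Cells 53 and 13 also differed from each other. Pdgfrb, a receptor of mural and mesangial cells, was 370 in cell 53 and 0.115 in cell 13, and the smooth muscle actin gene Acta2 was 860 and 169. Meis2, a stromal transcription factor, was 67.4 and 0.183. Tcf21, a transcription factor of stroma and podocytes, was 1194 and 548, and Wt1 was 0.330 and 35.3. Cell 53 had 10 of the 19 proximal vesicle and podocyte genes detected and cell 13 had 6, against a median of 9 per cell. Summed RPKM over that list was 2068 in cell 53 and 683 in cell 13, beside a median of 965. Over the 7 mesangial and smooth muscle genes the summed RPKM was 1232 in cell 53, the highest of all cells, and 169 in cell 13, against a median of 3.26. Cell 13 was lower than cell 53 in Penk and in all of these except Wt1. Both had the lysozyme gene Lyz2 (304 and 219) while the macrophage marker C1qb was at 0, and Lyz2 shares near-identical sequence with Lyz1.

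Cell 28 held Penk together with Npy and a mixed set of markers. Its nephron genes were at 758 for Pax8 and 262 for Wt1, its Npy was 1287, and Crym, the gene behind the reporter, was at 54.1. Its stromal genes were at 173 for Dcn, 225 for Alx1, 57.7 for Col1a2, 39.3 for Col3a1 and 33.2 for Col1a1. Pdgfra was 1.31 and Snai2 1.17, far under the levels in cells 53 and 13. Of 22 stroma genes 17 were detected, beside 37.9% of all genes in that cell. Col1a1 and Dcn were strong in cells 53, 13 and 28 and below RPKM 1 in all other cells. The labels state that chambers were inspected for single cells, and whether the library of cell 28 holds 1 cell was not tested.

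**Figure D4:**
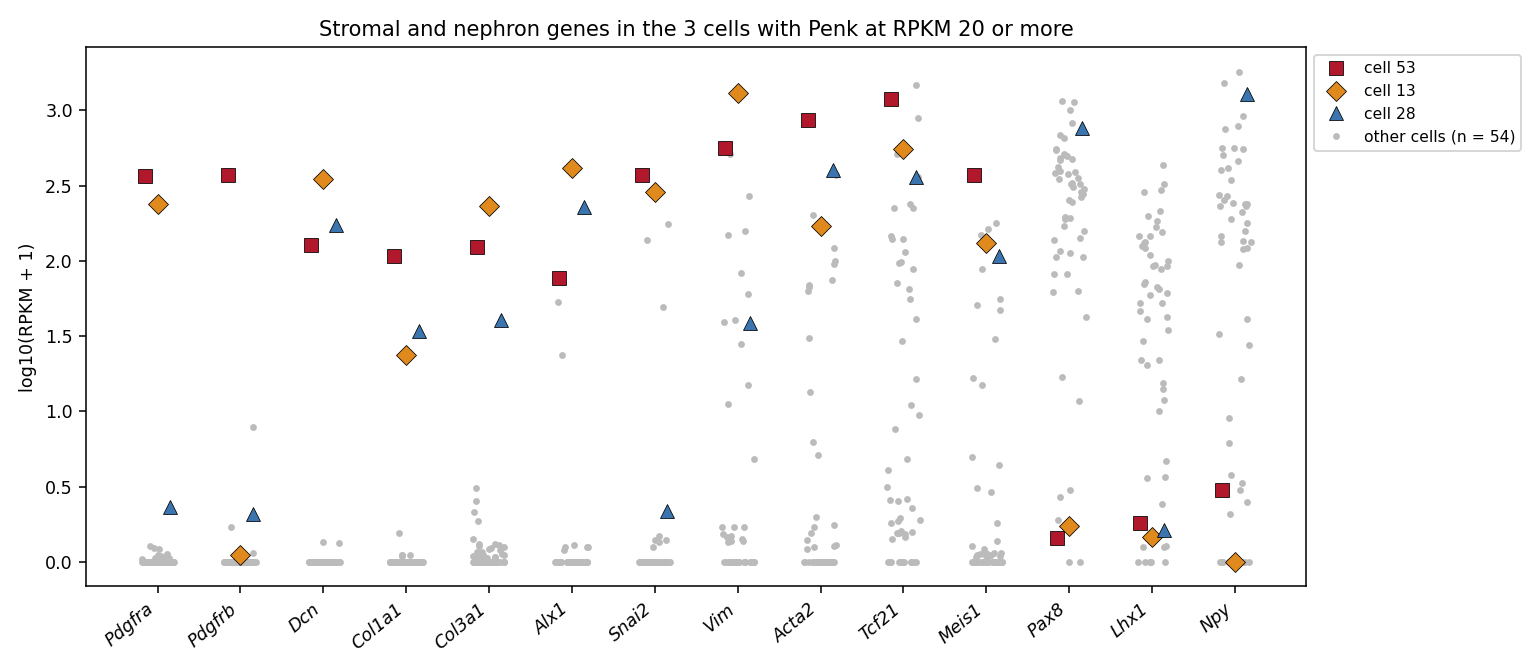
Expression of stromal genes, nephron genes and Npy as log10(RPKM + 1) in cell 53 (squares), cell 13 (diamonds) and cell 28 (triangles), with the other 54 cells as grey points. Dcn and Col1a1 are high in these 3 cells alone, Pdgfra in cells 53 and 13, and Pax8 and Npy in cell 28 but not in the other 2.

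Aldh1a2, an enzyme of retinoic acid synthesis found in part of the stroma and in vesicle cells, was nearly missing from the strong Penk cells. It was 0 in cell 53, 0.277 in cell 13 and 0.520 in cell 28, although 35 of all cells had it at RPKM 1 or more. Meis1, another stromal transcription factor, was 369, 131 and 107 in cells 53, 13 and 28, against 178 or less in the others. Neural markers were sparse: of the 2 neural and glial genes analysed, Uchl1 was 17.5 in cell 53 and 0 in cells 13 and 28, and Elavl4 was 0 in all 3. The sympathoadrenal gene Slc18a2, a monoamine transporter, was also at 0 in all 3. Of 12 G2/M genes none was detected in cell 53, 1 in cell 13 and 6 in cell 28, against a median of 7 per cell.

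The low Penk values followed the library index. The column headers give each cell an index number within 1 lane, whose leading digit runs from 1 to 8 and whose last 2 digits run from 1 to 12. Of the 54 cells without strong Penk, 14 share the leading digit or the last 2 digits with cell 53 or cell 13, and 12 of these 14 had Penk above 0 (85.7%). Of the 40 that share neither, 3 had Penk above 0 (7.50%), namely cells 33, 40 and 50, at 6.08, 0.318 and 0.551. Cell 28, whose Penk was the lowest of the 3 strong cells, is left out of this split. With it counted, 13 of 25 cells that share digits (52.0%) and 2 of 29 that do not (6.90%) had Penk above 0. The low values thus lie mostly in the rows and columns of the index that hold cells 53 and 13. This choice of cells was made after the values were seen. Leaving out those 14 cells, 4 of the remaining cells had Penk detected: 53, 13, 28 and 33. Whether index sharing accounts for the low Penk values was not tested. The same split cannot be made for Npy, because all 21 cells with Npy below 20 share a digit or digits with a strong Npy cell.

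**Figure D5:**
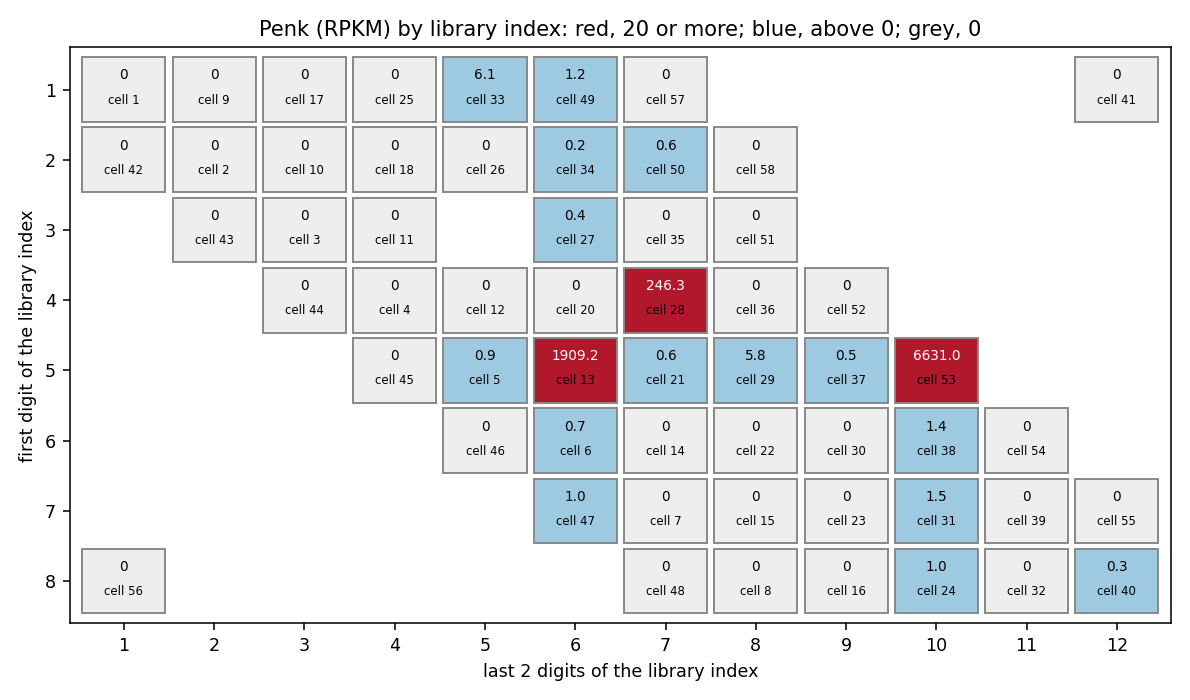
Penk RPKM of each cell placed by the leading digit (y axis) and the last 2 digits (x axis) of its library index, with red for 20 or more, blue for values above 0 and grey for 0. Apart from cells 33, 40 and 50, the blue cells share a row or column with cell 53 or cell 13.

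Of the low Penk cells outside that pattern, cell 33 carried nephron genes and only some of the stromal ones. It had Pax8 at 682, Jag1 at 349, Sox9 at 33.1 and Npy at 231, and Dcn, Col1a1 and Pdgfra were at 0. Aldh1a2 was at 70.6 and Tcf21 at 114 in it, which are not limited to stroma, and Meis1 was at 2.10. Cell 29, which shares the leading digit, was different. It had Penk at 5.79 with Pax8 at 112, Wt1 at 82.8 and Npy at 504, and beside these Vim at 511, the calponin-related gene Tagln at 882, Serping1 at 422 and Bgn at 104. Dcn, Col1a1 and Alx1 were at 0.246 or less in it.

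Rank correlation with Penk was taken in the same way. Of the same 10390 genes, 260 (2.50%) had a rho of 0.3 or more with Penk and 74 (0.712%) of -0.3 or less, with a median of 0.01. The highest were the proteoglycan Bgn (0.64), the GTPase Rhoj (0.60), the complement inhibitor Serping1 (0.57), the myosin light chain Myl9 (0.56), Tmbim1 (0.53), Vim (0.53), the cadherin Cdh11 (0.52), the amino acid breakdown enzyme Bckdha (0.52), Trmt12 (0.52) and Fam48a (0.51). Since the low values followed the index, the rho was also taken with Penk below 20 set to 0. It then was 0.43 for Bgn, 0.47 for Serping1, 0.38 for Vim and 0.17 for Fam48a. Dcn, Pdgfrb and Col1a1, detected in 3 cells each and thus outside that ranking, had 0.79, 0.69 and 0.64 with low values set to 0, and 0.40, 0.62 and 0.34 with all values. Dcn and Col1a1 were detected only in the 3 strong Penk cells, so a high rho with low values set to 0 was built in. Col1a2, Col3a1, Meis1 and Meis2 had 0.43, 0.41, 0.37 and 0.21 with low values set to 0. With all values they had 0.27, 0.14, 0.23 and 0.08. Genes at 0.3 or more numbered 293 with low values set to 0. Pax8 had 0.25 with all values and -0.14 with low values set to 0, so its sign depends on them. Serping1 was 1093 in cell 53, 514 in cell 13 and 76.8 in cell 28, and Myl9 was 377, 308 and 798.

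Among 15 stroma genes detected in at least 5 cells, 3 had a rho of 0.3 or more with Penk (Vim 0.53, Snai2 0.35 and Alx1 0.35), beside 2.50% of all genes. None was at -0.3 or less, and the list median was 0.17. Among Pax8 cells alone, which leaves out cells 53 and 13, Vim had 0.49, Snai2 0.19 and Alx1 0.23. None of the same 15 genes reached 0.3 or -0.3 with Npy, and the list median was -0.02. The lowest genes for Penk were Fdxacb1 (-0.41), the lipid kinase Pip4k2a (-0.41), Ms4a6c (-0.40), Mtss1 (-0.38) and the replication licensing factor Cdc6 (-0.38). Each of these 5 was at 0 in cells 53, 13 and 28.

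Joint detection of Npy and Penk lay near the number that independence gives. At RPKM 1 both were detected in 8 cells, where independence gives 7.11, and at RPKM 3 in 3 cells against 3.42. At RPKM 20 only cell 28 had both, against 1.89, while 35 cells had strong Npy alone and cells 53 and 13 had strong Penk alone. The rho between both genes was 0.13 over all cells, 0.20 among the Pax8 cells and -0.05 with Penk below 20 set to 0. It was -0.16 without the 14 cells that share index digits with cells 53 and 13. The relation was thus weak and its sign changed with the handling of the low Penk values.

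Few other members of either peptide system could be analysed. Of 9 listed ligands and receptors of the Npy family, Npy alone had a row, and the others were not analysed here. Of 10 listed opioid genes, Penk, the melanocortin and endorphin precursor Pomc, and the nuclear opioid growth factor receptor genes Ogfr and Ogfrl1 had rows. Pomc was detected in 3 cells with a highest RPKM of 69.7, Ogfr in 13 cells (148) and Ogfrl1 in 30 cells (191). None of these 3 had a rho of 0.3 or more with Npy or Penk. In cells 53, 13 and 28 Pomc was at 0, Ogfr was at 0.483, 0 and 0, and Ogfrl1 was at 10.5, 0.517 and 0.364.

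Enzymes that mature such precursors were present to different degrees in the cells that carried the genes. Of 15 listed processing genes 12 had rows. Cpe, the carboxypeptidase that trims basic residues, was detected in 33 cells, 30 of them with Npy (26.1 under independence), and its rho with Npy was 0.32, or 0.19 among Pax8 cells. Pcsk5, a convertase, was detected in 22 cells, 20 of them with Npy (17.4), with a rho of 0.39, or 0.33 among Pax8 cells. Pam, the amidating enzyme, was detected in 38 cells, 32 with Npy (30.0), and Scg5, the chaperone of the convertase Pcsk2, in 23, of which 21 had Npy (18.2). Pcsk2 itself was detected in 3 cells.

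The strong Penk cells differed from each other in single genes of this set. Cpe was 0 in cell 53, 0 in cell 13 and 15.6 in cell 28, and Scg5 was 0 in all 3. Pcsk5 was 0, 0.0554 and 0.780 in the same order, and the broadly used convertase Furin was 0.502, 6.41 and 22.9. Pam was 8.47, 42.1 and 5.56, and the protease Ctsl, which can cut proenkephalin, was 639, 0.318 and 180. Of the 12 processing genes 3 were detected in cell 53, 2 in cell 13 and 6 in cell 28, against a median of 5 per cell. Over all genes the share detected was 29.9% in cell 53, 28.6% in cell 13 and 37.9% in cell 28. With so few genes, these counts do not set the list apart from that share. No processing gene had a rho of 0.3 or more with Penk, and 2 of 11 had one with Npy. Over all genes the share was 2.50% for Penk and 4.98% for Npy.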

How the data were processed

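RPKM values of 12087 genes in 57 cells were deposited by the authors, not logged, per the file headers. TopHat 1.4.1, DESeq and build mm9 appear in the submitters' processing notes, with no role given. A deposited column counts the cells above RPKM 3 per gene. It matched the values for all 12087 genes, and its lowest value was 2, so genes under this level have no row. The signed fold of the smaller table is a score deposited by the authors, with no formula in the sources used here. Duplicate libraries were looked for, and 0 pairs of cells had identical values.

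Levels, counts of cells, Clopper-Pearson 95% intervals and Spearman rho were computed in Python 3.11.15 with pandas 2.3.3, numpy 2.4.6 and scipy 1.17.1, and figures were drawn with matplotlib 3.10.9. The rho code was tested on simulated data. Depth was estimated from the RPKM worth of 1 read in 2698 genes with a single transcript. With implied lengths of 546 bases for Npy and 1594 for Penk, 7 of 7 low Npy values and 12 of 13 low Penk values were whole reads within 0.1. Intervals cover the sampling of cells only. Amplified reads without molecular identifiers are not independent molecules. No count model was used, since the values are not counts. RPKM takes no account of how many transcripts a cell held.

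Named genes were the 10 highest and 5 lowest by rho, the 3 highest of each list, the most widely detected member of each list, and a set of kidney markers. Bmp7, Mecom, Ptpro, Nphs1, Dcn, Pdgfrb, Col1a2, Aif1, C1qb, Ccnb1, Mki67 and Pcsk2 were chosen after their values were seen, as were the splits by Wt1, Sox9, Pou3f3 and Synpo. The members and the lists were chosen with earlier results of these data known. Some genes of the lists are not reported here.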

Additional observations from a re-analysis of the deposited data

How the results depend on the processing

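Cells with Npy numbered 45 (39 at RPKM 3, 36 at RPKM 20), and 27 among the 30 cells with at least the median number of genes. Cells with Penk numbered 9, against 18 with any value above 0, 5 at RPKM 3, 3 at RPKM 20, 4 among the cells with at least the median number of genes, and 4 without the cells that share index digits, an alternative chosen after seeing the data. Cells with both numbered 8, against 13, 3, 1, 4 and 3 under the same settings. Mean log2(RPKM + 1) was 0.83 for Penk, -1.70 with a pseudocount of 0.1 and 3.75 with 10. The correlation of Npy and Penk, 0.13, was -0.073 as Pearson r of log2 values, -0.052 with Penk below 20 set to 0 and -0.16 without the cells sharing index digits, so no direction can be given. Genes with rho of 0.3 or more with Npy numbered 297 without the cells with low Pax8 and 319 with genes detected regressed out, against 517 over all cells. The cause of these differences was not tested. Fewer cells are counted in the settings that leave cells out. Of 504 alternative values of 86 rank correlations with named genes, 361 moved by less than 0.1 and 143 by more. Depth limits the low end: a Penk value under 1 is at most 3 reads. No paired analysis was possible because the cells form 1 group.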

Other observations

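The index pattern of Penk was looked at in other genes. Besides Penk, 62 genes had 1 to 3 cells at RPKM 200 or more and all other cells below 20. Counting each gene and other cell as a pair, the value was above 0 in 170 of 825 pairs that share the leading digit or the last 2 digits of the index with a high cell (20.6%), and in 337 of 2626 pairs that share neither (12.8%). The share was higher in the pairs with shared digits for 46 of the 62 genes. Penk had 85.7% and 7.50% for the same quantities with cells 53 and 13 as the high cells, and 52.0% and 6.90% when cell 28 was counted with them.

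Among other secreted peptides, the growth factors Mdk and Ptn, which bind heparin, were above their median in cells 53 and 13. Mdk was 940 in cell 53 and 1077 in cell 13, the 2 highest of all cells, and 240 in cell 28, with a median of 370. Ptn was 377, 149 and 319 in cells 53, 13 and 28, with a median of 87.3. Igf1 was strong in 5 cells, which are the macrophage-like cells, all with Npy at 0.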
